A study of Mus musculus with 2 samples.

Results

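The cells described here were 65 natural killer (NK)-gated cells of 27695 cells kept from 2 single-cell RNA libraries of mouse tumours. They were chosen by measured counts of unique molecular identifiers (UMIs), each of which stands for 1 captured transcript. A cell was taken when it held at least 800 UMIs, at most 15% mitochondrial UMIs and at least 2 UMIs summed over the NK genes Ncr1, Klrb1c, Klre1, Klra7, Klra8 and Clnk. It could hold at most 1 UMI of the T cell receptor subunits Cd3e, Cd3d and Cd3g, at most 3 of the macrophage genes Lyz2, C1qa and C1qb, and at most 2 of Hmga2, Sox9, Tafa1 and Hoxa9, which mark the tumour compartment. The tumours grew under the skin of C57BL/6 mice from MC38, a colon adenocarcinoma line. The line had been transduced as a pool with a lentivirus that carried SPP1, the gene of the secreted protein osteopontin, or an empty vector, and the labels give the genotype of both groups as WT. An antibody against the inhibitory receptor PD-1 was given in both groups at 10 mg/kg into the peritoneum, 2 times a week from day 7 for 2 weeks, so no group was free of the antibody. Each group is 1 library from the tumour of 1 mouse. Differences between the libraries therefore have no replicate check, no test was made, and the 95% intervals given cover counting error only.

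NK cells are innate lymphocytes that kill stressed or transformed cells without a rearranged antigen receptor. They balance signals from activating receptors, many of which work through the adaptors Tyrobp and Fcer1g, against inhibitory receptors that read MHC class I. Killing is carried out by perforin, which opens the way into the target, and by granzymes, serine proteases stored in granules. In tumours, NK cells lie beside related innate lymphocytes that carry residency integrins, and TGF-beta is known to move NK cells towards that phenotype.

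The library labelled vector held 37 of these cells and the library labelled SPP1 held 28. Spp1 over all other kept cells was at 286 and 239.5 CPM, not higher under the SPP1 label, so libraries are named as labelled and a direction between them rests on the labels. The NK-gated cells held 200240 and 183137 UMIs in all, with a median of 4899 (1164 to 15094) and 4668.5 (854 to 32638) per cell. Their median mitochondrial share was 1.58% and 1.90%. Of all barcodes, 93 occurred in both libraries, none of them an NK-gated cell. No NK-gated cell was among the 282 and 393 predicted doublets. At the limits of the rule, 4 cells in each library had exactly 2 NK gene UMIs, while 11 and 7 cells with 1 such UMI met every other limit and stayed out. A further 43 and 35 cells were left out by Cd3 alone, and 26 and 34 by the tumour genes alone.

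The genes of the gate are given as a description. Klre1, a receptor gene of the NK lectin family, had a UMI in 34 of 37 vector and 22 of 28 SPP1 cells. Ncr1, which encodes the activating receptor NKp46, had one in 22 and 15 cells, Klrb1c, the gene of NK1.1, in 20 and 16, and the adaptor gene Clnk in 22 and 18. Ncr1 or Klrb1c was seen in 29 and 22 cells. Markers outside the gate were Tyrobp in 31 and 25 cells, the carbonic anhydrase gene Car2 in 25 and 21, Gzma in 12 and 11, the granule gene Nkg7 in 34 and 25, Fcer1g in 35 and 26, and the interleukin 2 and 15 receptor subunit Il2rb in 34 and 27. Gzma was therefore absent from most members, and the cells do not all meet that marker. The T cell genes Trac, Cd8a and Cd8b1 had 0 UMIs in both libraries, against 568 and 378 Trac UMIs over all barcodes. Transcripts of the T cell receptor beta constant gene Trbc1 were present in 27 and 24 cells. Of the other cell types, all 5 neutrophil markers were at 0 in the NK-gated cells, as were 4 of 5 B cell markers. Summed levels as CPM, counts scaled to a library of 1e+06 UMIs, of the 8 macrophage markers were 74.9 and 43.7, and of the 6 markers of group 1 innate lymphoid cells (ILC1) 604 and 573. The 6 tumour compartment markers summed to 714 and 328 CPM, with a UMI in 30 and 23 cells, most of them of Col3a1, and the part of such transcripts in the values below was not tested. Dendritic markers summed to 69.9 and 5.46, endothelial markers to 105 and 175, T cell markers to 954 and 1119, and ILC2 or ILC3 markers to 160 and 115 CPM. B cell markers stood at 49.9 and 137 CPM, mast cell or basophil markers at 0 and 16.4, and gamma delta T and platelet markers at 9.99 and 5.46 each, with red cell markers at 0.

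Some NK-gated cells in the library labelled vector went against the label. Through their genes, 4 of its 37 stood out, and they were picked out after their values were seen. The deepest cell, with 15094 UMIs, held 163 UMIs of Cd74, 180 of H2-Ab1, 72 of Ccl17 and 13 of Cd209a, which are genes of dendritic cells, and none of Gzma, Gzmb, Gzmc, Prf1, Nkg7 or Il2rb. A cell with 5387 UMIs held 47 UMIs of Fabp4 and 7 of Cdh5, an endothelial cadherin gene, and also 35 of the library's 131 Ccl5 UMIs. In the third and the fourth, with 5573 and 3204 UMIs, the collagen gene Col3a1 had 25 and 28 UMIs beside 14 and 27 of Gzmc. The limits were at least 3 UMIs of Cd209a, 3 of Cdh5 or 20 of Col3a1, whatever the depth of the cell. Shallow cells could hardly meet them, and a vector cell with 1181 UMIs, 6 of them of Col3a1, stayed in. No cell of the library labelled SPP1 met the same limits. Values without these 4 cells are given where they moved a result.

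In the library labelled SPP1, the 3 cells richest in Gzmf held 41.8% of all UMIs of its NK-gated cells, with 32638, 30715 and 13164 UMIs. They held 1, 2 and 2 UMIs of the 8 macrophage markers, and 5, 3 and 5 of the tumour compartment list. They also held 8, 9 and 5 UMIs of the endothelial markers, all of them of the adhesion gene Pecam1 and none of Cdh5. Of the mast cell or basophil markers they held 2, 1 and 0 UMIs, all of Mcpt8, with Cpa3, Ms4a2, Fcer1a and Mcpt4 at 0. All 5 neutrophil markers were at 0 as well. Of Ctsg, a granule protease gene of myeloid cells, they held 78, 23 and 1 UMIs. The part of such transcripts in the results was not tested. In the library labelled vector the corresponding 3 cells held 13.2% of the UMIs. Ratios between the libraries are therefore also given without these 3 cells of the library labelled SPP1. The corresponding vector cells stayed in, and the 3 cells were picked by Gzmf. A fall of Gzmf, and of genes high in the same cells, is thus set in part by the choice.

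NK-gated cells made up 0.264% (0.186 to 0.364%, exact binomial interval) of the cells kept under the vector label and 0.204% (0.136 to 0.295%) under the SPP1 label. The log2 ratio was -0.37 (-1.08 to 0.34), and -0.21 without the 4 vector cells. Among cells with a UMI of the leukocyte gene Ptprc they were 2.20% and 2.22%, a log2 ratio of 0.01 (-0.70 to 0.73). CD8 T-gated cells were chosen by at least 2 Cd3 UMIs, at least 1 of Cd8a or Cd8b1 and fewer than 2 NK gene UMIs. With the same macrophage and tumour gene limits, they numbered 31 and 20. A further 40 and 33 cells with Cd3 and with Cd8a or Cd8b1 held at least 2 NK gene UMIs and fell in neither class. There were 1.19 and 1.4 NK-gated cells per CD8 T-gated cell, a log2 ratio of 0.23 (-0.85 to 1.31). This ratio leaves those cells out and is not one to all CD8 T cells. No difference in abundance was detectable at these cell numbers.

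The NK-gated cells were rich in a cluster of granzyme genes on chromosome 14. Gzmc, Gzmd, Gzme, Gzmf and Gzmg encode granzymes C to G, which mouse NK cells and activated T cells can make beside the better known granzymes A and B. Every cell with a Gzmf or Gzmg UMI also held Gzmc, but the 5 genes were not always found together. Of the cells with Gzmc, 9 and 11 held none of the other 4, and 2 and 3 held all 5. To show how alike the genes are, the 250 bases before each annotated start are shown, from RefSeq with build GRCm38.p6, on the minus strand and read 5′ to 3′. The windows are Gzmc at chr14:56234658-56234907, Gzmd at chr14:56132594-56132843, Gzme at chr14:56120626-56120875, Gzmf at chr14:56211408-56211657 and Gzmg at chr14:56159580-56159829. Capitals mark each match to TGANNTCA, a loose form of the cyclic AMP response element, searched on both strands.
Gzmc: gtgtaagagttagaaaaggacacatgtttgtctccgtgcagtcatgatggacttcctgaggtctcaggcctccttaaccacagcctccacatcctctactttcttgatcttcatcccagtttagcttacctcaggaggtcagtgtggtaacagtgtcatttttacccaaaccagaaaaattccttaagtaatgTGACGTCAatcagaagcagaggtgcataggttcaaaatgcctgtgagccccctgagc
Gzmd: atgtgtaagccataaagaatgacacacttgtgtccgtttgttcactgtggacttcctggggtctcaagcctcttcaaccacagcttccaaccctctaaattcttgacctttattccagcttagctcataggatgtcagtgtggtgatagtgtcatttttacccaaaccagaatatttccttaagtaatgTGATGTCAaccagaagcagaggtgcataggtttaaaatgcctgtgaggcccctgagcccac
Gzme: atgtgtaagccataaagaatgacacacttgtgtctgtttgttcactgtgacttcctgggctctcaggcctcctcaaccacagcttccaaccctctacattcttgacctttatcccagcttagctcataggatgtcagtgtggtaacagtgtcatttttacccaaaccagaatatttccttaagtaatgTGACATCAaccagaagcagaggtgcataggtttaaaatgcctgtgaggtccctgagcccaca
Gzmf: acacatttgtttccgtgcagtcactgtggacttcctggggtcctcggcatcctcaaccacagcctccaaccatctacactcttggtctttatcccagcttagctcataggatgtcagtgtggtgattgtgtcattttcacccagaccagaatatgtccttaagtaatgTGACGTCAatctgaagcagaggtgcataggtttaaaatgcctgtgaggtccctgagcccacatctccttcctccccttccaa
Gzmg: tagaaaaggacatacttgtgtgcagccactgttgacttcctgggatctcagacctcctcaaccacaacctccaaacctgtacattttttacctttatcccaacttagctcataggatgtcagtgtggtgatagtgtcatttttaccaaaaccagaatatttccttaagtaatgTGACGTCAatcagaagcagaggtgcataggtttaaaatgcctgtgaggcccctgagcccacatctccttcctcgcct

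Each of the 5 windows held 1 match to TGANNTCA, which 11.9% of 32841 mouse promoter windows of the same length hold. The match ended 49 to 74 bases before the annotated start. In Gzmc, Gzmf and Gzmg it was TGACGTCA, the full palindrome of the element, which is found in 1.55% of all windows and is contained in the looser motif. Gzmd held TGATGTCA and Gzme TGACATCA. Each window also held AACCACA, a form of the RUNX motif, on 1 of both strands (4.4% of all windows), as did the windows of Gzmb and Gzma, in which TGANNTCA was not found. Over the 10 pairs of the 5 genes, identity was 84.4 to 95.6% between these windows and 76.1 to 94.8% between their GENCODE transcripts. Reads could be split between such near-identical genes in the authors' counting, so single values of Gzmd, Gzme, Gzmf and Gzmg are uncertain. The matches describe these letters only, and binding was not measured.

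Among the granule genes, Gzmb, the gene of granzyme B, had a UMI in 26 of 37 NK-gated cells under the vector label and 22 of 28 under the SPP1 label. Per 10000 UMIs of the cell it ranged from 0 to 77.2 with a median of 11.9, and from 0 to 184 with a median of 23.6. At 2102 and 3926 CPM, Gzmb had a log2 ratio of 0.90 (0.73 to 1.08). For Gzmc, found in 24 and 21 cells, values per 10000 UMIs ran from 0 to 241 (median 16.9) and from 0 to 357 (median 84.5). The CPM were 6722 and 13312, a log2 ratio of 0.99 (0.89 to 1.08). Both groups of cells began at 0 and overlapped, while 4 SPP1 cells for Gzmb and 3 for Gzmc lay above every vector cell. The ratios stayed near these values without the 3 richest SPP1 cells, at 1.13 for Gzmb and 0.93 for Gzmc, and were 0.70 and 0.80 without the 4 vector cells.

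Larger ratios were found for the other granzymes of the cluster, Serpinb9b and Prf1, and most of them rested on the 3 richest SPP1 cells. Gzmf had a UMI in 5 cells of each library, with 101, 42, 36, 2 and 1 UMIs under the vector label and 757, 634, 477, 21 and 1 under the SPP1 label. The 3 highest cells thus held 98.4% and 98.8% of its UMIs. The log2 ratio of 3.51 (3.29 to 3.73) turned to -2.14 without the 3 richest SPP1 cells, while the 3 highest vector cells stayed in. Gzmg was also found in 5 cells of each library, with 6, 3, 2, 1 and 1 UMIs against 495, 125, 89, 65 and 6. Its ratio of 6.04 (5.25 to 6.95) was 3.36 without the 3 cells. Gzmd, in 13 and 8 cells, stood at 789 and 7240 CPM (3.20), and at 0.71 without them. Gzme, in 11 and 7 cells, stood at 295 and 2599 CPM (3.14), and at 1.35 without them. Serpinb9b, which encodes a serpin of the granzyme inhibitor family, had 19 and 132 UMIs in 4 and 6 cells (2.93), of which 1 SPP1 cell held 104, and the ratio was -0.53 without the 3 cells. Prf1, the gene of perforin, was at 644 and 1387 CPM (1.11, 0.79 to 1.42) and at 0.29 without them. Gzma was at 844 and 983 CPM (0.22, -0.09 to 0.53), at 0.63 without the 3 cells and at -0.46 as a mean over cells, so no direction can be given. Ratios were also taken without the 3 cells of each library with most UMIs of the gene itself. They were 3.58 for Gzmf, with 2 and 1 UMIs left in vector cells, 5.85 for Gzmg, 1.43 for Gzmd and 2.40 for Gzme. Serpinb9b was at 2.01, Prf1 at 0.99 and Gzma at -0.05.

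**Figure D1:**
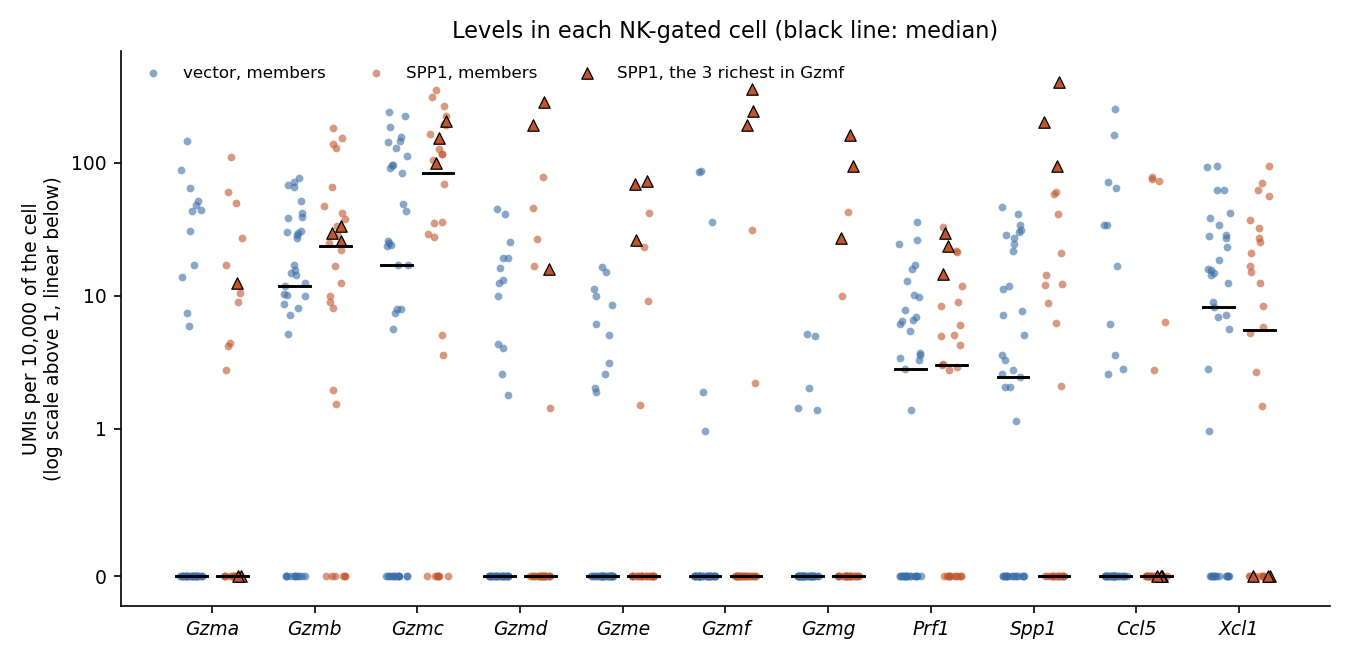
UMIs per 10000 of each NK-gated cell for granzymes, perforin, Spp1, Ccl5 and Xcl1 (log scale above 1, linear below), by library, 37 vector and 28 SPP1 cells, with black lines at the medians. Triangles mark the 3 SPP1 cells richest in Gzmf, which lie at the top of Gzmf and Spp1 but within the range of the other cells for Gzmb and Gzmc.

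Of the 23 genes of the cytotoxic granule and death ligand list, 20 had at least 10 UMIs, and 14 of them were higher and 6 lower in the library labelled SPP1. Among its 18 genes with at least 40 UMIs, 7 were past 2-fold higher and 0 past 2-fold lower. Without the 3 SPP1 cells these counts were 3 (Gzmg and Gzme, and now Gzmb) and 1 (Gzmf) of 15, and without the 4 vector cells 5 and 0 of 18. Over all 1708 genes with at least 40 UMIs in the NK-gated cells, 2.87% were past 2-fold higher and 5.39% past 2-fold lower. Over genes with at least 40 UMIs the list's median log2 ratio was 0.75, beside -0.08 over all genes. Without the 3 SPP1 cells these medians were 0.49 and -0.01, and without the 4 vector cells 0.55 and -0.10. Over the list's genes with at least 10 UMIs the median was 0.43, and it was 0.42 without the 3 SPP1 cells and 0.28 without the 4 vector cells. The death ligand gene Fasl was at 110 and 109 CPM (-0.01), and the granule protein gene Nkg7 at 784 and 1185 CPM (0.60, 0.29 to 0.90). Gzmm was at 0 in all NK-gated cells, which allows up to 14.98 and 16.38 CPM by the limit of 3 counts, although both libraries held 194 and 191 of its UMIs elsewhere.

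Spp1 itself was measured in the NK-gated cells. It had a UMI in 22 of 37 cells of the library labelled vector, with a highest value of 46.2 per 10000 UMIs, and in 13 of 28 of the library labelled SPP1, with a highest value of 408. The median cell held 2.45 and 0 per 10000. At 1313 and 9113 CPM, Spp1 had a log2 ratio of 2.79 (2.61 to 2.99), but the 3 richest SPP1 cells held 1474 of 1669 UMIs, and the ratio was 0.48 without them. The ratio was 1.16 without the 3 cells of each library with most Spp1. Expected detection in cells thinned to 1000 UMIs was 37.3% and 38.9% in NK-gated cells. In CD8 T-gated cells it was 13.6% and 27.6%, in tumour-gated cells 11.02% and 10.4%, and in macrophage-gated cells 52.4% and 58.0%, at median depths of 3182 and 3469.5, 11634.5 and 11202, and 7796.5 and 7333 UMIs. Tumour-gated cells held at least 3 tumour gene UMIs, at most 3 macrophage gene UMIs and none of Ptprc or the NK genes. Macrophage-gated cells held at least 10 macrophage gene UMIs, at most 2 tumour gene UMIs and none of Cd3 or the NK genes. Gzmc was expected at 1000 UMIs in 0.254% and 0.144% of tumour-gated cells against 59.4% and 73.2% of NK-gated cells. The low share in tumour-gated cells is set in part by their gate, which left out cells with an NK gene UMI. For the osteopontin receptor gene Cd44, at 524 and 513 CPM (-0.03, -0.45 to 0.38), no difference was detectable at this depth.

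The NK-gated cells were split by their Gzmc and Gzma counts. This split was drawn after the values were seen and is a description of ranges, not of types. Cells with at least 3 Gzmc UMIs and more Gzmc than Gzma numbered 20 of 37 under the vector label and 19 of 28 under the SPP1 label. Those with at least 2 Gzma UMIs and more Gzma than Gzmc numbered 10 and 5, and 7 and 4 cells met neither limit. At least 2 Gzma UMIs were held by 12 and 10 cells, of which 4 and 6 also held at least 2 of Gzmc, so under the SPP1 label most cells with Gzma held Gzmc too. Such cells were placed by the higher of both counts, and 5 and 2 lay near the limits. Of the 4 vector cells with genes of another cell type, 2 were among the 20 Gzmc cells and none among the Gzma cells. The 3 SPP1 cells richest in Gzmf were all among the 19 Gzmc cells and held 76517 of their 159046 UMIs. They stayed in for the values below, and their part in these was not tested. Median depth differed between the 2 sets, at 6942 and 5139 UMIs in the Gzmc cells and 2237.5 and 3299 in the Gzma cells, and its part in the values below was not tested beyond thinning.

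**Figure D2:**
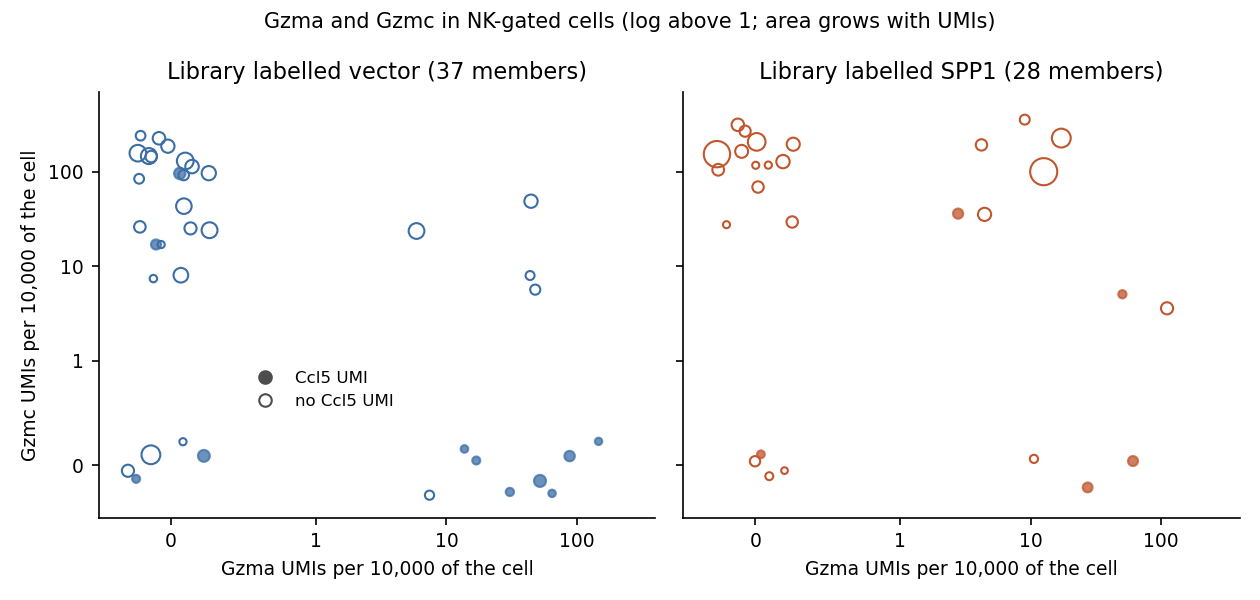
Gzma against Gzmc in UMIs per 10000 of each NK-gated cell (log scale above 1, linear below, zeros spread at random around 0), by library, with area growing with the cell's UMIs and filled symbols for cells with a Ccl5 UMI. Cells with at least 2 UMIs of both genes number 4 of 37 and 6 of 28, and of the cells with Ccl5, 7 of 11 and 3 of 5 were placed as Gzma cells.

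Among 2042 genes with at least 30 UMIs in both sets together, 0.93% were past 1.5 on the log2 scale in both libraries towards the Gzmc cells and 0.637% towards the Gzma cells. Ccl5, a chemokine gene of effector lymphocytes, had a UMI in 7 of 10 and 3 of 5 Gzma cells but in 2 of 20 and 1 of 19 Gzmc cells. At 1000 UMIs its expected detection was 55.8% and 60.0% against 3.89% and 1.46%. Klra8, a receptor gene of the Ly49 family, had a UMI in 6 of 10 and 2 of 5 Gzma cells, and in 1 of 20 and 4 of 19 Gzmc cells. Klrb1c was expected in 45.1% and 32.5% of Gzma cells and in 18.3% and 15.7% of Gzmc cells. Klra8 and Klrb1c are genes of the gate, and the shallower Gzma cells had to meet the same limit of 2 NK gene UMIs. Their higher share there is therefore set in part by the rule. Klra7, also of the gate, had log2 ratios of Gzmc over Gzma cells of only -0.19 and -0.09.

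Itgav, the alpha V integrin subunit that forms osteopontin receptors, had a UMI in 17 of 20 and 14 of 19 Gzmc cells and in 3 of 10 and 1 of 5 Gzma cells. Its expected detection was 38.3% and 29.2% against 16.8% and 5.79%. Itga1, the integrin that serves as an ILC1 and residency marker, was found in 13 of 20 and 16 of 19 Gzmc cells and in 2 of 10 and 1 of 5 Gzma cells, with thinned values of 25.4% and 35.1% against 11.5% and 10.1%. Spp1 was seen in 16 of 20 and 13 of 19 Gzmc cells against 4 of 10 and 0 of 5 Gzma cells. All 13 cells with Spp1 in the library labelled SPP1 were thus Gzmc cells, as were 16 of 22 in the library labelled vector. The metal-binding gene Mt1 was at 1038 and 2597 CPM in Gzmc cells against 268 and 123 in Gzma cells, with thinned values of 33.9% and 36.1% against 28.2% and 16.4%. Without the 2 vector cells of another type Mt1 was expected in 26.7% of the Gzmc cells of that library, so its detection there was not higher. The other genes kept their direction without these cells, with Ccl5 at 4.32%, Itgav at 37.8%, Itga1 at 28.3%, Spp1 at 52.1% and Inpp4b at 64.5%. Inpp4b, a phosphoinositide phosphatase gene, had a UMI in 17 of 20 and 16 of 19 Gzmc cells and in 3 of 10 and 1 of 5 Gzma cells. Of the transcription factors of NK maturation, Eomes was expected in 8.81% and 11.8% of Gzmc cells against 23.7% and 18.4% of Gzma cells, although its CPM under the SPP1 label ran the other way, at 302 against 247. The Eomes values of the Gzma cells rested on 7 and 4 UMIs. Tbx21 was near level under the vector label, at 26.6% against 22.4% and 344 against 307 CPM. Under the SPP1 label it was expected in 21.8% against 5.79%, the latter from 1 UMI in 1 of 5 Gzma cells.

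Over all NK-gated cells, Eomes and Itga1 were seen together in 8 and 7 cells, Eomes alone in 8 and 4, Itga1 alone in 10 and 11, and neither in 11 and 6. Klra7 and Klra8, both of the Ly49 family, shared a cell in 2 and 5 cells. Klra7 alone was found in 6 and 4, Klra8 alone in 6 and 1, and neither in 23 and 18. Such counts depend on depth, and a cell without a UMI need not lack the transcript.

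In the library labelled SPP1, 56.6% of all genes with at least 40 UMIs were lower. Of the activating receptor list, 17 genes were measured, with at least 10 UMIs, and 7 of these were higher and 10 lower. Their median log2 ratio of -0.27 became 0.02 without the 3 SPP1 cells. Klrk1, the gene of the receptor NKG2D, was at 509 and 339 CPM (-0.59, -1.07 to -0.12) and at 0.02 without them. Cd226, the gene of the activating receptor DNAM-1, had 77 and 27 UMIs in 15 and 11 cells, a ratio of -1.38 (-2.07 to -0.73) and -0.60 without the 3 cells. In the adaptor and signalling list, 11 of 16 genes were higher (median 0.30), among them Tyrobp at 1049 and 1267 CPM (0.27) and Fcer1g at 1763 and 2211 CPM (0.33, 0.12 to 0.54). Among inhibitory receptors, 10 of 15 were higher, with a median of 0.47 that was -0.09 without the 3 cells. Klrg1 and Havcr2 are genes of inhibitory receptors on differentiated lymphocytes. All 26 Klrg1 and all 23 Havcr2 UMIs of the library labelled SPP1 lay in those 3 cells, while the library labelled vector held 6 and 2. Klrc1, the gene of the inhibitory receptor NKG2A, was lower at 459 and 208 CPM (-1.15, -1.73 to -0.59) and at -0.37 without them. Pdcd1, the gene of PD-1, had 2 and 6 UMIs. Klrb1b and Lilrb4a held 0 UMIs in every barcode of both libraries, so nothing can be read from them, and the same holds for the integrin gene Itgam.

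Ccl3, Ccl4 and Ccl5 were carried by few cells, while Xcl1 was found in most. Of 9 measured genes of the cytokine list, 6 were lower in the library labelled SPP1 and the median was -0.74, but 0.04 without the 3 SPP1 cells. Among all genes with at least 40 UMIs 56.6% were lower, while the list takes genes with at least 10. Xcl1, which draws dendritic cells, had a UMI in 24 and 17 cells and ranged from 0 to 94.9 and from 0 to 94.1 per 10000 UMIs, with medians of 8.26 and 5.54. Its CPM were 1843 and 1103 (-0.74), and the ratio was 0.04 without the 3 cells, which held none of it. Ccl5 had 131 UMIs in 11 cells and 68 in 5, a ratio of -0.82 (-1.26 to -0.38), which was -0.60 without the 4 vector cells and -0.04 without the 3 SPP1 cells. Ccl4 had 86 and 32 UMIs in 9 and 4 cells (-1.30), of which 1 vector cell held 51 and 1 SPP1 cell 25. The Ccl4 ratio was -0.52 without the 3 SPP1 cells and turned to 0.10 with at least 1500 UMIs per cell, which leaves that vector cell out. Ccl3 had 48 UMIs in 5 vector cells, 41 of them in that same vector cell, and 0 in the library labelled SPP1. The interferon gamma gene Ifng had 18 and 13 UMIs in 9 and 7 cells (-0.34, -1.49 to 0.77).

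Over all genes with at least 40 UMIs, 56.6% were lower in the library labelled SPP1. Of 20 measured genes of the cytokine receptor and STAT list 15 were lower, with a median of -0.40 and of -0.09 without the 3 SPP1 cells. Il2rb was near level at 1578 and 1371 CPM (-0.20, -0.45 to 0.04). Il18r1, a subunit of the interleukin 18 receptor, had 25 UMIs in 14 cells and 3 UMIs in 3 cells, a log2 ratio of -2.93 (-5.30 to -1.22) and of -2.15 without the 3 SPP1 cells. Ifngr1, an interferon gamma receptor subunit, was at 469 and 218 CPM (-1.10) and at -0.60 without them. In the TGF-beta and tissue residency list 13 of 15 genes were lower (median -0.54, and -0.15 without the 3 cells). The TGF-beta feedback inhibitor Smad7 had 34 and 13 UMIs (-1.26, -2.30 to -0.30). Among transcription factors 16 of 25 were lower, with a median of -0.29 that was 0.01 without the 3 SPP1 cells. Tox, needed for NK development, was at 310 and 142 CPM (-1.12), but at -0.34 without the 3 SPP1 cells and at 0.32 as a mean over cells. Runx1 was at 330 and 147 CPM (-1.16), at -0.61 without the 3 SPP1 cells and at -0.77 without the 4 vector cells. Id2, also needed for innate lymphocytes, was at 1633 and 2130 CPM (0.38, 0.17 to 0.60) but turned to -0.14 without the 3 SPP1 cells. Of the homing list, 13 of 18 were lower with a median of -0.05, and the chemokine receptor gene Ccr2 was at 474 and 491 CPM (0.05).

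Immediate early genes are known to respond to tissue digestion as well as to receptor signals. Of 17 measured genes of the immediate early and heat shock list 13 were lower, with a median of -0.30 and of -0.06 without the 3 SPP1 cells. Beside this, 56.6% of all genes with at least 40 UMIs were lower, while the list takes genes with at least 10. Nr4a1, a target of antigen and NK receptor signals, had a UMI in 24 of 37 and 9 of 28 cells, and was at 375 and 98.3 CPM (-1.93, -2.76 to -1.17). The phosphatase gene Dusp1 had a UMI in 31 and 10 cells (-1.54, -2.28 to -0.84), and Fos stood at 934 and 399 CPM (-1.23, -1.64 to -0.83). Without the 3 SPP1 cells these ratios were -1.41, -0.82 and -0.64. The heat shock gene Hsp90aa1 went the other way at 454 and 759 CPM (0.74).

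In the remaining lists, 9 of 12 MHC class I presentation genes were lower (median -0.31), beside 56.6% of all genes with at least 40 UMIs. These lists take genes with at least 10 UMIs. H2-K1 was at 3306 and 1917 CPM (-0.79, -0.98 to -0.60) and B2m at 7256 and 5526 CPM (-0.39). The median cell was near level, at 32.3 and 31.1 per 10000 UMIs for H2-K1 and 64.1 and 60.5 for B2m. The list median was 0.03 without the 3 deepest cells per library. Without the 3 SPP1 cells H2-K1 was at -0.24, B2m at -0.04 and the list median at -0.19. In the glycolysis and hypoxia list 12 of 16 genes were higher (median 0.35), among them the glycolytic enzyme genes Ldha (0.67) and Pgk1 (0.96), which were at 0.18 and 0.77 without those cells. Of 19 proliferation genes 16 were lower (median -0.34). At least 3 UMIs of the proliferation list were found in 27 of 37 cells (73.0%, 55.9 to 86.2%) and 16 of 28 cells (57.1%, 37.2 to 75.5%), and the share expected with at least 1 UMI after thinning to 1000 was 68.8% and 67.9%. Mki67, a marker of cycling cells, was seen in 5 and 6 cells. Interferon response genes had a median of -0.03, with 5 of 11 higher, and of 0.36 without the 4 vector cells.

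**Figure D3:**
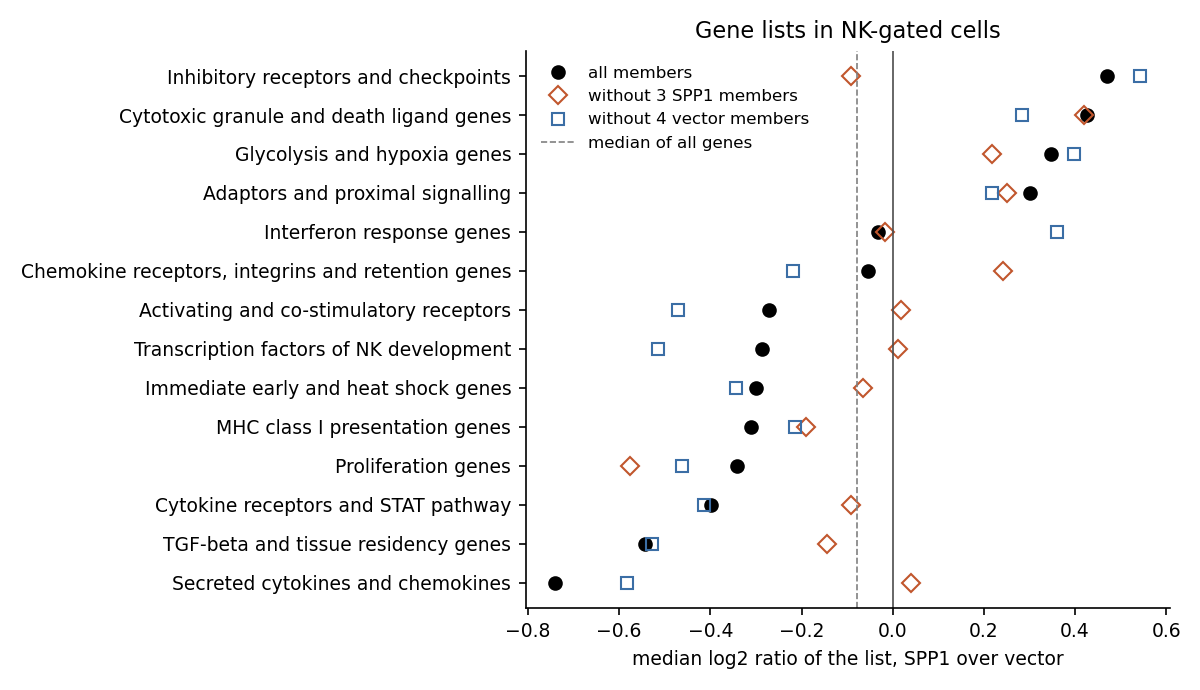
Median log2 ratio, SPP1 over vector, of the 14 gene lists in NK-gated cells, for all cells (black), without the 3 SPP1 cells richest in Gzmf (diamonds) and without the 4 vector cells with genes of another cell type (squares). The cytotoxic list lies at 0.43, 0.42 and 0.28, while 5 of the 14 medians, among them cytokines and inhibitory receptors, lie on the other side of 0 without the 3 cells. The dashed line marks the median of all genes (-0.08). That line takes genes with at least 40 UMIs, the lists those with at least 10. With at least 40 UMIs the cytotoxic list was at 0.75, 0.49 and 0.55.

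The size rule named up to 10 genes each way. Besides the granzymes, Serpinb9b and Spp1 described above, the higher genes were Basp1, a membrane-linked signalling protein gene (3.16), the selenoprotein gene Selenos (1.71), Pecam1, an adhesion gene (1.67), and Ctnnd2, a catenin gene (1.45). Without the 3 richest SPP1 cells Pecam1 was at 0.77 and Ctnnd2 at 0.13. Basp1 had 98 UMIs in 5 SPP1 cells. Its ratio was 1.36 without the 3 cells of each library with most Basp1, and -0.35 without the 3 richest SPP1 cells. For Selenos, with 12 UMIs in 9 cells and 36 in 12, the ratio was 0.91 without them. The lower genes were Ptms (-2.19), Amd1, an enzyme gene of polyamine synthesis (-2.04), Nr4a1, the autophagy regulator Ambra1 (-1.72), the NF-kB subunit Rel (-1.72), Heca (-1.68), the Mediator subunit Med14 (-1.56), Dusp1, Wsb1 (-1.52) and Pdlim5 (-1.46). Rel had 72 UMIs in 21 cells and 20 in 9, and was at -1.17 without the 3 SPP1 cells, where Heca was at -0.90 and Dusp1 at -0.82. Without the 4 vector cells Ptms was at -1.29 and Pdlim5 at -0.81.

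**Figure D4:**
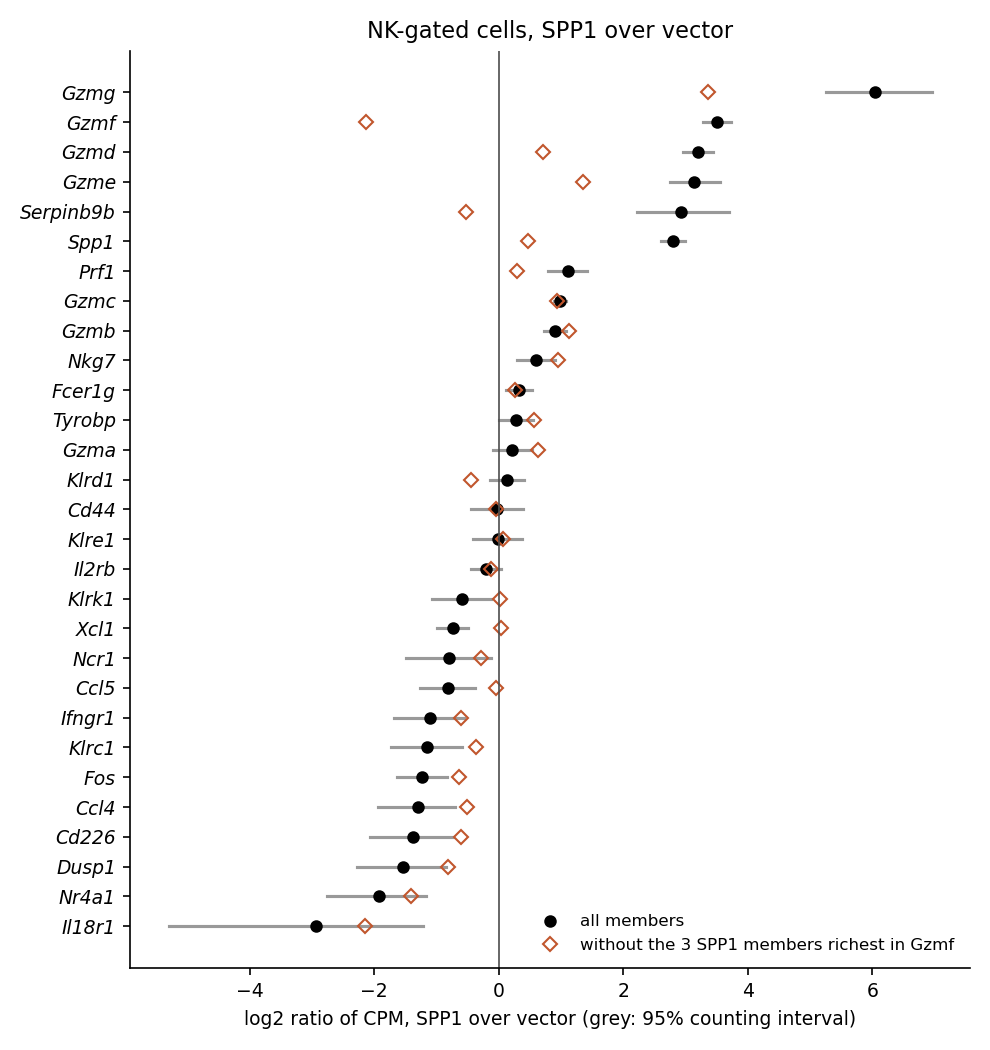
Log2 ratio of CPM, SPP1 over vector, for 29 genes in NK-gated cells with 95% counting intervals (black points, grey lines), and the same without the 3 SPP1 cells richest in Gzmf (diamonds). Gzmc and Gzmb keep ratios near 1, whereas Gzmf and Serpinb9b lie below 0 without the 3 cells. No vector cell was left out for the diamonds.

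Set beside CD8 T-gated cells, the NK-gated cells held more Tyrobp, Car2 and Gzmc and had 0 UMIs of Themis and Trac. The gate kept only CD8 T cells with fewer than 2 NK gene UMIs and left out 40 and 33 others. The comparison is thus with the CD8 T cells least like NK cells, and says nothing of the rest. Among 2596 genes with at least 40 UMIs over both classes, 2.27% were past 1.5 on the log2 scale higher in both libraries and 1.69% lower, and the gates themselves fix part of these counts. Tyrobp was at 1049 and 1267 CPM in NK-gated cells against 0 and 36.2 in CD8 T-gated cells. Car2 was at 534 and 825 CPM against 18.3 and 0. Gzmc, at 6722 and 13312 CPM, stood against 27.4 and 797. Ccr2 was at 474 and 491 CPM against 64.0 and 48.3, the lipid A hydrolase gene Aoah at 125 and 251 against 9.15 and 24.1, and the signalling inhibitor Spry2 at 360 and 213 against 45.7 and 24.1. Spp1 was also higher, by 2.92 and 4.01 on the log2 scale.

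Genes lower in NK-gated cells included Themis, which acts in T cell receptor signalling, at 0 UMIs in both libraries against 127 and 97 in CD8 T-gated cells. Trac followed the same pattern, with 0 UMIs against 79 and 66. Pdcd1, the target of the antibody, was at 9.99 and 32.8 CPM against 302 and 386. The chemokine receptor Cxcr6 was at 45.0 and 43.7 CPM against 375 and 531, and Ccl1 had 2 and 0 UMIs against 29 and 72. Nkg7 was lower by about 1 on the log2 scale in NK-gated cells (-1.09 and -1.05). Ccl5 (-1.19 and -2.82) and Ifng (-1.91 and -2.94) were lower too. Trbc1 stood in both classes, at 484 and 524 CPM against 531 and 579.

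**Figure D5:**
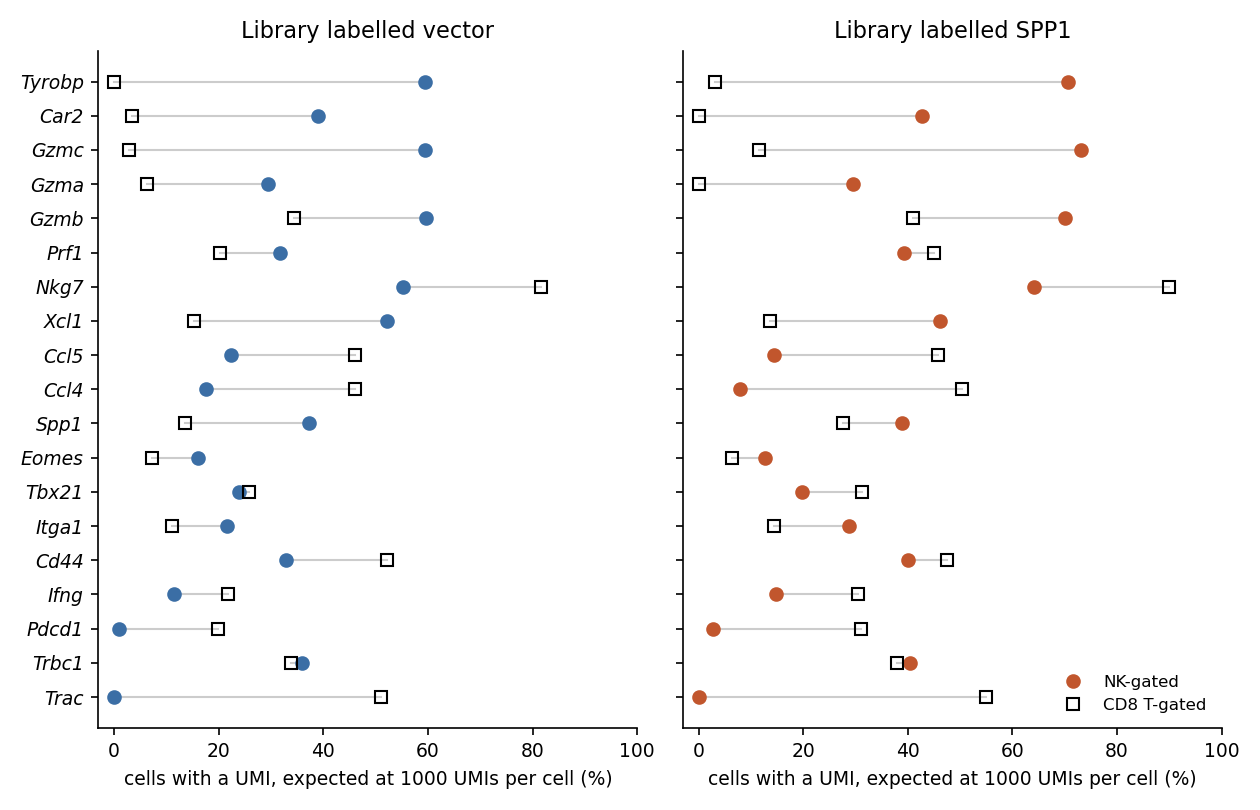
Share of cells with a UMI expected at 1000 UMIs per cell (%) for NK-gated (filled circles) and CD8 T-gated cells (open squares), by library. Tyrobp, Car2 and Gzmc lie far apart between the classes, Trac is at 0 in NK-gated cells, and Trbc1 lies close in both.

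Against all other kept cells, which is a description because the gate used the same cells, genes that stood out were Klrb1f, Gzma, Gzmc, Car2, Atp1b1, Tmsb15a, Samd3, Prf1, Dscam, Xcl1, Sidt1, Satb1, Il2rb and Txk. Atp1b1, a subunit of the sodium pump, was at 120 and 180 CPM against 0.16 and 0.15 in the other cells. The lymphocyte kinase gene Txk was at 474 and 606 CPM against 1.54 and 1.02, and the lectin receptor gene Klrb1f at 125 and 104 CPM. Dscam, a neural adhesion gene, was found in 18 and 13 NK-gated cells. Tmsb15a rested on 2 cells in each library.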

How the data were processed

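Single-cell RNA was measured in 2 tumour libraries, 1 per group. The authors' deposited files hold whole-number UMI counts for each gene and barcode, without normalization. Cell Ranger 2.1.1 and build GRCm39 come from the submitters' processing notes. For the annotation, the cell calling and any earlier doublet removal, the labels state nothing. Counts were summed over NK-gated cells per library and given as CPM of these cells (Python 3.11.15, NumPy 2.4.6, SciPy 1.17.1). Log2 ratios have exact conditional binomial intervals and shares exact binomial ones, at 95%. Ratios of shares have log intervals. A count of 0 was bounded by 3 counts. Detection at 1000 UMIs is the hypergeometric expectation, with shallower cells left out. Doublets were predicted by Scrublet's method, written anew, with Otsu's threshold (1.98% and 2.82% of scored cells), and were kept, since the rule has no such step. The scripts were tested on simulated data.

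Genes were named when at least 40 UMIs and 2-fold apart, with the same sign and 1.5-fold without the 3 cells richest in that gene, up to 10 each way. Against CD8 T-gated cells the limit was 1.5 on the log2 scale in both libraries, and against all other cells the first 15 were taken. Mitochondrial, ribosomal, receptor-segment and clone-named genes, those of the gate and likely free RNA (under 10% of the macrophage or tumour level) were left out. Other genes come from the 14 gene lists (the 6 with most UMIs, and others named after their values were seen) and 14 marker lists. Members and lists were chosen with earlier results of these data known. The limits for the 4 vector cells, the 3 SPP1 cells and the Gzmc and Gzma split were chosen after seeing the data. Promoter windows come from RefSeq (GRCm38.p6) and were not placed on GRCm39. Some genes that these rules name are not reported here.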

Additional observations from a re-analysis of the deposited data

How the results depend on the processing

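No paired analysis was possible because each group is 1 library and the labels carry no replicate numbers. The log2 ratio of the share lay between -0.54 and 0.01 over 10 alternatives, and that per CD8 T-gated cell between -0.24 and 0.40 over 9, all within the counting intervals. Leaving out predicted doublets changed no value of the gene comparisons, since none was an NK-gated cell. The numbers of genes past 2-fold, 49 higher and 92 lower, depended on which cells and genes entered. They were 21 and 37 without the 3 cells with most UMIs per library, 176 and 274 with at least 20 UMIs, 21 and 34 with at least 80, and 2347 and 2384 with no filter. Higher genes numbered 32 with at most 1 macrophage gene UMI and 22 without the 3 SPP1 cells richest in Gzmf, an alternative chosen after seeing the data. Against CD8 T-gated cells, 59 higher genes became 31 with at least 80 UMIs, and 44 lower ones 81 with at least 20 and 21 with at least 80. Of 75 genes, 36 were past 2-fold with all cells. That size and direction held for 13 of them without the 3 SPP1 cells. It held for 19 without the 3 deepest cells per library and for 21 as a mean over cells. Another sign was found for 14 of the 75 without the 3 SPP1 cells and for 12 as a mean over cells. Past 2-fold, these were Basp1 (-0.35), Gzmf (-2.14) and Serpinb9b (-0.53) without the 3 cells. Klra7, just under 2-fold at 1.00, was at -0.49. For these values cells left the SPP1 library only. Without the 3 cells of each library with most UMIs of the gene itself, Basp1 was at 1.36, Gzmf at 3.58 and Serpinb9b at 2.01. Ccl4 turned to 0.10 with at least 1500 UMIs per cell. Eomes, at 1.05, turned to -0.26 without the 3 deepest cells per library and to -0.39 as a mean over cells, and Tox turned to 0.32 as such a mean. The cause of these turns was not tested. Of 14 list medians, 5 changed sign without the 3 SPP1 cells, 5 without the 3 deepest cells per library and 1 without the 4 vector cells. With 37 and 28 cells, depth limits every gene under about 40 UMIs.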
